A study of Mus musculus with 12 samples.

Results

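Multidrug efflux pumps are membrane proteins of the ATP-binding cassette (ABC) family that use ATP to push drugs and drug conjugates out of cells. Here 8 pump genes, Abcb1a, Abcb1b, Abcc1, Abcc2, Abcc3, Abcc4, Abcc5 and Abcg2, were taken by gene symbol from a table of 53801 genes, and each is the sum of its transcripts, 67 in all. Abcb1a and Abcb1b encode the P-glycoproteins, the classic pumps of hydrophobic drugs, and mice carry both where humans have the single gene ABCB1. The Abcc genes encode multidrug resistance-associated proteins, several of which carry glutathione conjugates, and Abcg2 encodes the breast cancer resistance protein, which works as a dimer. Cisplatin is not a classic substrate of P-glycoprotein, whereas conjugates of platinum with glutathione are described substrates of Abcc2.

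Mouse LLC cells, the Lewis lung carcinoma line, were the source of the tumours, with 3000000 cells in Matrigel placed in each flank of female C57BL/6 mice aged 6 to 8 weeks. All 4 groups carried such tumours. The mice were given vehicle, the DNA-damaging platinum drug cisplatin, brivanib, which blocks the receptor kinases for VEGF and FGF, or both drugs, called the combination below. Injections of 100 µL went into the peritoneum 2 times per week for 4 weeks once tumours had reached 100 mm3, and the labels used here state no dose. Each group held 6 mice with 10 to 12 tumours and gave 3 libraries, named by the labels' numbers (vehicle 2, 3 and 5, cisplatin 1, 2 and 3, brivanib 2, 3 and 5, combination 2, 3 and 4). With tumours on both flanks, libraries of 1 group may share an animal, so they may not be independent. The p-values speak of the spread among these libraries, which may understate the spread between animals and may be partly technical. The study is about brivanib given together with chemotherapy, and drug efflux is one property known to bear on how cells respond to drugs.

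Recovered depth was 17161000 to 30943000 fragments per library. Brivanib 5 stood apart, with 37.749% of its recovered fragments on ribosomal-like features against 0.268% to 0.656% in the others. The libraries were whole tumours, so a lower level can come from fewer cells of a type or from less RNA per cell, and these cannot be told apart. Epithelial and lung markers, 10 genes, summed to 2.28 to 6.86 FPKM. Cdh1 had the highest mean, at 2.03 FPKM, and Epcam, Krt19 and Krt7 were at 0.818, 0.408 and 0.331. Krt18 and the lung genes Nkx2-1, Sftpc and Scgb1a1 were at 0 in all groups, and the lung gene Sftpb had a mean of 0.0198 FPKM. A lung cell type was thus not visible in these lung genes.

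Promoter sequence was available from RefSeq (GRCm38.p6) for 6 of the 8 genes, in 9 windows. The windows printed here are the 250 bases before 4 starts: Abcb1b, which differed between groups, its near-copy Abcb1a, which did not pass any test, and both starts of Abcg2 that the abundant transcripts use. All are on the plus strand and are written 5′ to 3′ in the order Abcb1b (chr5:8797897-8798146), Abcb1a (chr5:8566841-8567090), Abcg2 short transcript (chr6:58640296-58640545) and Abcg2 long transcript (chr6:58596422-58596671). Capitals mark matches to the motifs searched.
Abcb1b: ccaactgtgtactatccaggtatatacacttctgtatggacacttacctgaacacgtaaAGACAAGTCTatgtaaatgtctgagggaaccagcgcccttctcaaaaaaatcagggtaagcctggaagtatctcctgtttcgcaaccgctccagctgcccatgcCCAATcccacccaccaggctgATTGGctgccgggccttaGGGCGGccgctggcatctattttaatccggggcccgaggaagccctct
Abcb1a: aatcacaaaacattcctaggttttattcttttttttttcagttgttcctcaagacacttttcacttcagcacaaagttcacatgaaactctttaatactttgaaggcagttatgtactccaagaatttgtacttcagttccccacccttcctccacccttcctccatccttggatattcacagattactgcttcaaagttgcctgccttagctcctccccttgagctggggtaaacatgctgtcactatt
Abcg2 short transcript: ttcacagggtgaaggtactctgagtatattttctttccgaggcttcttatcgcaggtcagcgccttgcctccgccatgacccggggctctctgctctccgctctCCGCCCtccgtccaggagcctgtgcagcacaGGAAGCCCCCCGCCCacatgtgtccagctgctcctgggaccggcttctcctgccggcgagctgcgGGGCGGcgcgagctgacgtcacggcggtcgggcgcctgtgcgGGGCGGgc
Abcg2 long transcript: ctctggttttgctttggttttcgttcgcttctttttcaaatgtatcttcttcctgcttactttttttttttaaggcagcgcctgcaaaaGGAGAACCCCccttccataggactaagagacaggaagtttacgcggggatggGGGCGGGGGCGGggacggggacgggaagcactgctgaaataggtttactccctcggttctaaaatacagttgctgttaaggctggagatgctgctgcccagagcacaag
The motifs, searched on both strands, were CCAAT, the GC box GGGCGG, the antioxidant response core TGACNNNGC, the AP-1 site TGACTCA, the aryl hydrocarbon receptor core GCGTG, the E-box CACGTG, the p53 half-site and the NF-kB site. The Abcb1b window held 2 CCAAT matches starting 87 and 66 bases before the start, 1 GC box at 48 and 1 p53 half-site at 191. Of 32851 RefSeq promoter windows of the same length, 33.8% held a CCAAT, 32.7% a GC box and 7.13% a p53 half-site. The Abcb1a window held no match to any of the 8 motifs. The window before the short Abcg2 transcript held 4 GC boxes and 1 NF-kB match, the latter overlapping a GC box, and the window before the long one held 2 GC boxes and 1 NF-kB match. An NF-kB match was present in 7.25% of all windows. TGACNNNGC (10.2% of windows), TGACTCA (4.46%), GCGTG (28.2%) and CACGTG (6.02%) had no match in the 4 windows printed. Among the windows not printed, those of Abcc4 and Abcc2 held TGACNNNGC matches. The Abcc4 window before 118706219 also held GCGTG and CACGTG matches. The start that RefSeq gives for Abcb1a lies upstream of the gene model in the deposited table, which begins at 8660077, so its window is not at the start of the transcripts measured.

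Levels are in FPKM, fragments scaled to transcript length and library depth, which can be set side by side between genes. In the vehicle tumours Abcc1 was the highest pump, with 33.8 ± 7.15 FPKM (mean ± SD, n = 3), which placed it at percentile 81.2 of the 14246 genes tested. Abcc5 followed at 13.7 ± 1.99, Abcb1b at 8.50 ± 1.13, Abcc4 at 7.37 ± 1.25, Abcg2 at 3.22 ± 0.762 and Abcb1a at 2.01 ± 0.449 FPKM. Neighbouring ranges overlapped for Abcb1b (7.45 to 9.69) and Abcc4 (6.17 to 8.67), and for Abcg2 (2.34 to 3.67) and Abcb1a (1.65 to 2.515), so these pairs cannot be ordered beyond their spread. Abcc3 was at 0.21 ± 0.0837 FPKM and Abcc2 was listed at 0 in the 3 vehicle libraries. A gene was tested where its mean over the 12 libraries was at least 1 FPKM, and 6 of the 8 pumps passed that filter.

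**Figure D1:**
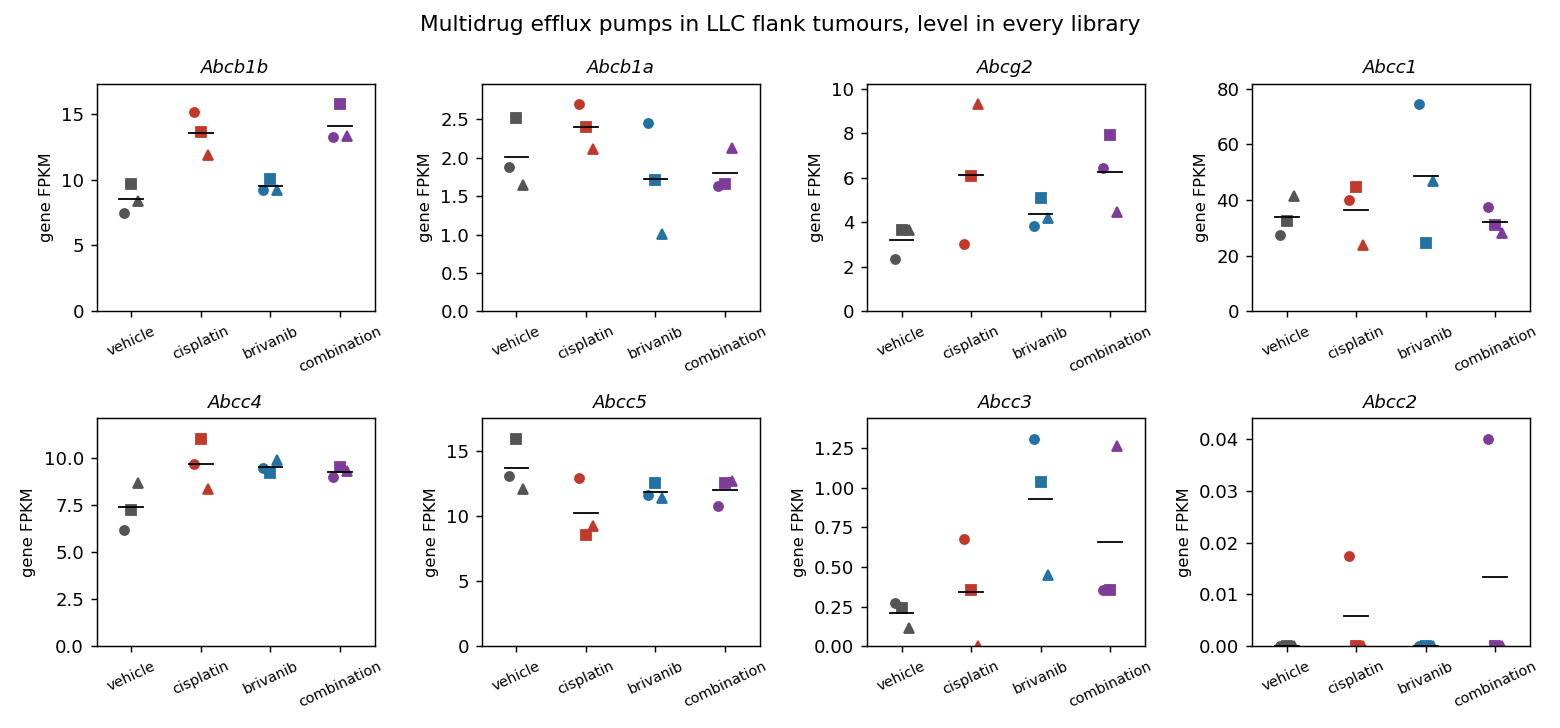
Gene FPKM (vertical axes, linear and starting at 0, each with its own range) of the 8 pumps in the 4 groups, with 1 point per library, the marker shape following the order of the library numbers, and a bar at the group mean. For Abcb1b the 6 libraries of the cisplatin and combination groups sit between 11.87 and 15.7 FPKM, above the 6 others, which reach 10.02.

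Abcb1b, the P-glycoprotein gene at chr5:8798147-8866315 on the plus strand (ENSMUSG00000028970), was higher in the tumours given cisplatin, with or without brivanib. It was at 7.45, 9.69 and 8.36 FPKM in vehicle 2, 3 and 5 and at 9.21, 10.02 and 9.22 FPKM in brivanib 2, 3 and 5. Cisplatin 1, 2 and 3 were at 15.12, 13.61 and 11.87 FPKM, and combination 2, 3 and 4 at 13.22, 15.7 and 13.32 FPKM. All 6 libraries with cisplatin lay above all 6 without, in FPKM and in recovered fragments (919 to 1380 against 622 to 876). Of all genes tested, 3.45% separated the libraries in this way, and Abcb1b was 1 pump of the 6 tested that did.

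The mean level of Abcb1b was 13.8 ± 1.39 FPKM (SD, n = 6) with cisplatin and 8.99 ± 0.942 without, a ratio of 1.54. Averaged over the 2 settings, with and without brivanib, Abcb1b was higher with cisplatin by 0.57 ± 0.0885 on the log2(FPKM + 1) scale (SE), with an adjusted p of 0.00634 by limma (Benjamini-Hochberg over all genes tested). In that comparison 6.51% of all genes passed the threshold of 0.05, and 4.96% of all genes did so with the higher level under cisplatin, and Abcb1b was the 1 pump that passed. A moderated F test for any difference among the 4 groups also called Abcb1b (adjusted p = 0.0212), with 4.13% of all genes called.

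Comparing single groups, Abcb1b was 0.67 ± 0.125 higher in the combination than in vehicle on the log2(FPKM + 1) scale (adjusted p = 0.0234 by limma, 2.34% of genes called), and 0.52 ± 0.125 higher than in brivanib alone (adjusted p = 0.0424, 3.87% of genes called). Cisplatin alone against vehicle gave a difference of similar size, 0.61 ± 0.125, which missed the threshold at an adjusted p of 0.0765. There 0.19% of genes were called. Brivanib alone, where 1.81% of genes were called, differed from vehicle by 0.15 in log2(FPKM + 1), with a 95% interval from -0.126 to 0.421 (adjusted p = 0.705 by limma), and the combination from cisplatin alone by 0.06, with an interval from -0.218 to 0.329. The effect of brivanib with and without cisplatin differed by -0.09, with an interval from -0.479 to 0.294 (adjusted p for the interaction = 0.902). With equal FPKM totals the brivanib difference was -0.18 and that of the interaction 0.23, so neither direction is fixed by these data.

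The call for the averaged cisplatin effect was kept when any 1 library was left out, at adjusted p from 0.00876 to 0.0197. It was lost when all libraries were rescaled to the same FPKM total (0.67, adjusted p = 0.0625, against 0.0048 to 0.0867 over all alternatives). Of the alternatives, 1 other also lost the call, and it is given with the dependence on processing. Brivanib 5 had an FPKM total of 921510 against 471828 to 527657 in the others. With equal totals and brivanib 5 left out, an alternative added after seeing the data, it was 0.53 at an adjusted p of 0.0266. The call of the combination against vehicle was lost when vehicle 2, 3 or 5 or combination 2 or 3 was left out, with values from 0.59 to 0.76 and adjusted p up to 0.092. It was also lost with the adipocyte score as a covariate (0.53, adjusted p = 0.29, against 0.0161 to 0.508 over all alternatives), and adipocyte markers summed to 116.1 to 351.2 FPKM in the combination against 29.9 to 31.6 in vehicle. The call against brivanib alone was lost without vehicle 2 or 5, cisplatin 2, or any 1 library of the brivanib or combination groups, and that of the F test without vehicle 2, vehicle 5 or brivanib 5.

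Of 10 proliferation genes, 4 were called higher in the averaged cisplatin effect, against 4.96% of all genes. For cisplatin against vehicle 0 of the 10 were called, where 0.19% of all genes were. The summed FPKM of the 10 was 688 to 800 in vehicle and 725 to 951 in brivanib, against 1022 to 1036 in cisplatin and 883 to 1081 in the combination. Brivanib 3, at 950.7, lay above combination 3, at 883.3, so the libraries with and without cisplatin overlapped. The median log2 difference of the 10 in the averaged cisplatin effect was 0.30 against 0.05 over all genes tested. Erythroid genes were lower with cisplatin, at 4.44 to 99.6 summed FPKM in cisplatin and 4.54 to 16.5 in the combination against 449 to 3086 without it. Pericyte and smooth muscle markers summed to 30.0 to 48.6 FPKM with cisplatin and 48.8 to 137.6 without. Fibroblast markers summed to 560 to 1077 FPKM in cisplatin and 750 to 1246 in vehicle, and to 329 to 794 in the combination and 1617 to 2137 in brivanib. In the averaged cisplatin effect 4 of 8 tested pericyte and 3 of 10 fibroblast markers were called lower, against 1.55% of all genes. For cisplatin against vehicle 0 of either list were called, with 0.19% of all genes called. For the combination against brivanib alone 5 of each list were called lower, with 3.87% of all genes called. The part of these cells in the Abcb1b result was not tested. With a covariate for skeletal muscle or for adipocytes Abcb1b was still called, at 0.57 and 0.53. Of the markers in either of these lists, 0 were called in the averaged cisplatin effect. The proliferation, erythroid, pericyte and fibroblast lists were not used as covariates.

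**Figure D2:**
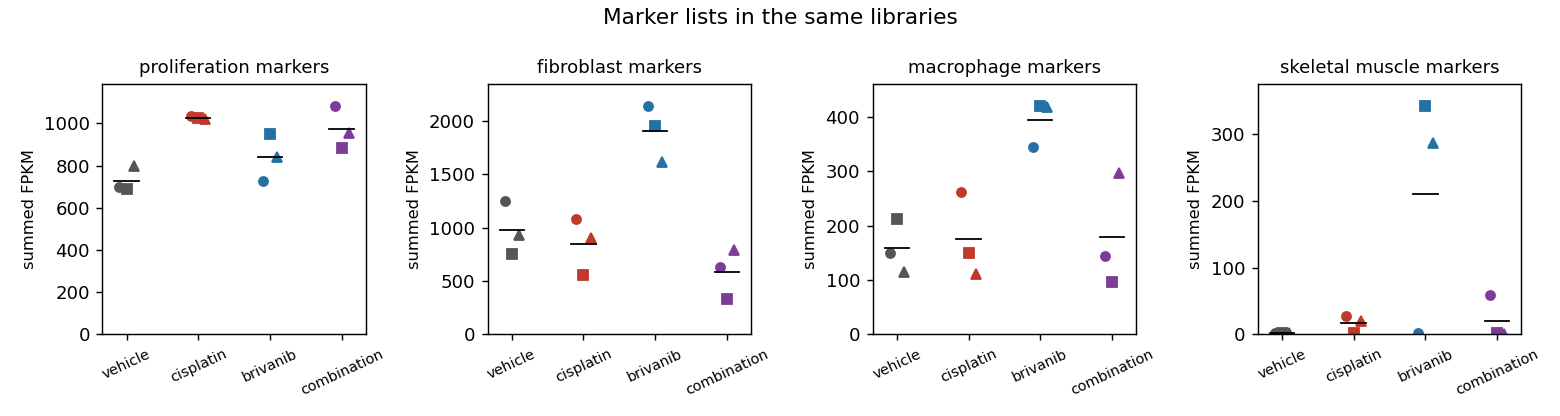
Summed FPKM (vertical axes, linear, starting at 0) of the proliferation, fibroblast, macrophage and skeletal muscle marker lists in the same libraries, with 1 point per library and a bar at the group mean. Proliferation markers reach 800 in the vehicle libraries and 950.7 in brivanib 3, which overlaps the combination from 883 upward, while muscle markers are high in brivanib 3 and 5, at 341.7 and 287.5.

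Most of the Abcb1b signal lay on 1 transcript. ENSMUST00000009058, the 28-exon coding form, held 84.8% of the gene's mean FPKM, from 59.0% in vehicle 3 and 79.2% in brivanib 5 to 91.6% in cisplatin 1. Its level was 6.43 ± 0.69 FPKM in vehicle, 12.1 ± 1.86 in cisplatin, 7.92 ± 0.738 in brivanib and 12.2 ± 1.12 in the combination (SD, n = 3). In a fit over 28610 transcripts its averaged cisplatin effect was 0.69 ± 0.102 in log2(FPKM + 1), with an adjusted p of 0.0212 by limma, where 1.01% of transcripts were called. Exons of Abcb1b share 143 bases with the antisense gene Gm5106, and no strand setting is named for the counting, so reads from that stretch cannot be assigned.

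Abcb1a, the other P-glycoprotein gene, lies just before Abcb1b on the same strand (chr5:8660077-8748575). It was at 1.88, 2.515 and 1.65 FPKM in vehicle 2, 3 and 5, at 2.69, 2.405 and 2.11 in cisplatin 1, 2 and 3, at 2.45, 1.70 and 1.01 in brivanib 2, 3 and 5, and at 1.63, 1.66 and 2.13 in combination 2, 3 and 4. The ranges overlapped in every pair of groups, and no comparison passed the test. The 95% interval of its averaged cisplatin effect ran from -0.191 to 0.448 in log2(FPKM + 1) (adjusted p = 0.626 by limma), an interval that overlaps that of Abcb1b (0.374 to 0.761). The difference between the 2 genes was not tested. Exons of Abcb1a share 553 bases with Gm42686, a gene on the opposite strand, and reads from that stretch cannot be assigned either.

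The transcripts of the pair are 86.6% identical over 4260 aligned bases, and 18.04% of all 50-base windows of the Abcb1b transcript occur unchanged in that of Abcb1a. Fragments from those stretches were split between the genes by the authors' estimation, so both levels are uncertain to that extent. Summed as 1 feature the pair was still called in the averaged cisplatin effect, at 0.51 (adjusted p = 0.0101 by limma). Abcb1b made up 79.0% to 90.4% of the pair's FPKM in the 12 libraries. This share was 79.9%, 79.4% and 83.6% in the 3 vehicle libraries and 84.9% to 90.4% in the 6 with cisplatin. Brivanib 2, 3 and 5 were at 79.0%, 85.5% and 90.1%, a range that overlaps both. The share was not tested.

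Abcg2 (chr6:58584523-58695676, plus strand), which exports a wide range of drugs and is a known marker of side population cells, had its highest levels in tumours given cisplatin, but with wide spread. It was at 2.34, 3.67 and 3.65 FPKM in vehicle 2, 3 and 5 and at 3.84, 5.11 and 4.21 in brivanib 2, 3 and 5. Cisplatin 1, 2 and 3 were at 3.03, 6.065 and 9.31, and combination 2, 3 and 4 at 6.445, 7.92 and 4.45 FPKM. Cisplatin 1 lay within the vehicle range, whereas the other 5 libraries with cisplatin lay above it. The averaged cisplatin effect was 0.54 ± 0.212 in log2(FPKM + 1), with an unadjusted p of 0.0257 and an adjusted p of 0.142 by limma, so it did not pass. Without cisplatin 1 it was 0.72 with an adjusted p of 0.0399, against 0.0399 to 0.277 over the 12 fits with 1 library left out.

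Cisplatin 1 was low in FPKM but not in fragments. The gene had 339 recovered fragments there, or 16.1 fragments per 1000000, more than in the 3 vehicle libraries (177 to 221 fragments, or 8.11 to 10.9 fragments per 1000000). Cisplatin 2, at 10.9 fragments per 1000000, was level with vehicle 3 by that measure. In 11 libraries the short coding transcript ENSMUST00000114294 (2178 bases, from 58640564) held 36.7% to 83.5% of the gene's FPKM, and in cisplatin 1 it was listed at 0. The long coding transcript ENSMUST00000031822 (5717 bases, from 58596671) held 90.05% of the gene there, at 2.73 FPKM against 0.27 to 1.15 in the others. Since FPKM divides by length, the same fragments give a lower level on the longer transcript. On recovered fragments, with limma-voom, the averaged cisplatin effect of Abcg2 was 0.55 at an adjusted p of 0.112.

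Abcc1 (chr16:14361558-14475737, plus strand), which exports glutathione conjugates and many natural product drugs, was the most abundant pump and had the widest range in FPKM. Brivanib 2, 3 and 5 were at 74.35, 24.4 and 46.9 FPKM, a range that contains all 9 other libraries except cisplatin 3, the lowest of the 12 at 23.97. Vehicle ranged from 27.36 to 41.51, cisplatin from 23.97 to 44.63 and the combination from 28.32 to 37.44 FPKM. Brivanib against vehicle gave 0.39 in log2(FPKM + 1), with a 95% interval from -0.344 to 1.13 (adjusted p = 0.709 by limma).

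A transcript that keeps an intron varied most among its forms. The retained-intron form ENSMUST00000146032 (chr16:14461013-14474042, 8 exons, annotated as non-coding) was at 1.16 to 2.03 FPKM in the 3 vehicle libraries, 4.23% to 4.89% of the gene. It was at 25.6 FPKM in brivanib 2, 15.6 in cisplatin 2, 15.3 in cisplatin 1, 12.8 in brivanib 5 and 10.7 in combination 2, which is 27.3% to 38.1% of the gene. In the other 4 libraries, 1 or 2 of each treated group, it was at 0.135 to 1.22 FPKM. The 5 high libraries were all from treated groups, but each treated group also held at least 1 low library, and no comparison of this transcript passed the test. The full-length coding transcript ENSMUST00000100167 was at 22.0 to 35.1 FPKM in 11 libraries and at 41.5 in brivanib 2.

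Abcc4 (chr14:118482692-118706219, minus strand) exports cyclic nucleotides, prostaglandins and nucleotide analogues. It was at 6.17, 7.26 and 8.67 FPKM in vehicle 2, 3 and 5, at 9.65, 11 and 8.37 in cisplatin 1, 2 and 3, at 9.445, 9.18 and 9.91 in brivanib 2, 3 and 5, and at 8.97, 9.49 and 9.29 in combination 2, 3 and 4. In FPKM the 3 brivanib and the 3 combination libraries lay above the vehicle range, and 1 of the cisplatin libraries lay within it. In recovered fragments per 1000000 the vehicle range was 37.21 to 51.44. Brivanib 2 and 5, at 50.13 and 37.59, and combination 2, at 51.3, lay within that range. Against vehicle the differences in log2(FPKM + 1) were 0.36 for cisplatin, 0.34 for brivanib and 0.30 for the combination, with adjusted p of 0.24, 0.314 and 0.236 by limma. None passed, and these 3 comparisons share the vehicle libraries. Over the alternatives that did more than leave out 1 library, the brivanib difference ranged from 0.0095 to 0.385 and was not called.

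Abcc5 (chr16:20331303-20426394, minus strand), a further exporter of cyclic nucleotides, was the 1 pump whose mean was below vehicle in all 3 treated groups. It was at 13.05, 15.91 and 12.09 FPKM in vehicle 2, 3 and 5 and at 12.91, 8.57 and 9.26 in cisplatin 1, 2 and 3. Brivanib ranged from 11.4 to 12.51 and the combination from 10.74 to 12.71 FPKM. Cisplatin against vehicle gave -0.40 ± 0.15 in log2(FPKM + 1), unadjusted p = 0.0218 and adjusted p = 0.255 by limma, so it was not called, and cisplatin 1 lay within the vehicle range.

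Abcc5 was spread over several transcripts. Its full-length coding form ENSMUST00000079158, 49.9% of the gene, was at 5.82 ± 0.615 FPKM in vehicle, 5.71 ± 1.32 in cisplatin and 6.86 ± 0.954 in the combination (SD, n = 3). The retained-intron form ENSMUST00000134962 (chr16:20400760-20426324, 28.0% of the gene) was at 4.66, 4.74 and 3.98 FPKM in vehicle 2, 3 and 5 and at 4.04, 3.44 and 3.32 in brivanib 2, 3 and 5. It was at 2.61, 2.93 and 2.23 FPKM in cisplatin 1, 2 and 3 and at 2.55, 2.46 and 3.19 in combination 2, 3 and 4. All 6 libraries with cisplatin lay below all 6 without, a split in that direction found for 0.65% of transcripts, and its averaged cisplatin effect was -0.45 ± 0.11 in log2(FPKM + 1), with an adjusted p of 0.0813 by limma. That missed the threshold, which 0.294% of transcripts passed in the lower direction.

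**Figure D3:**
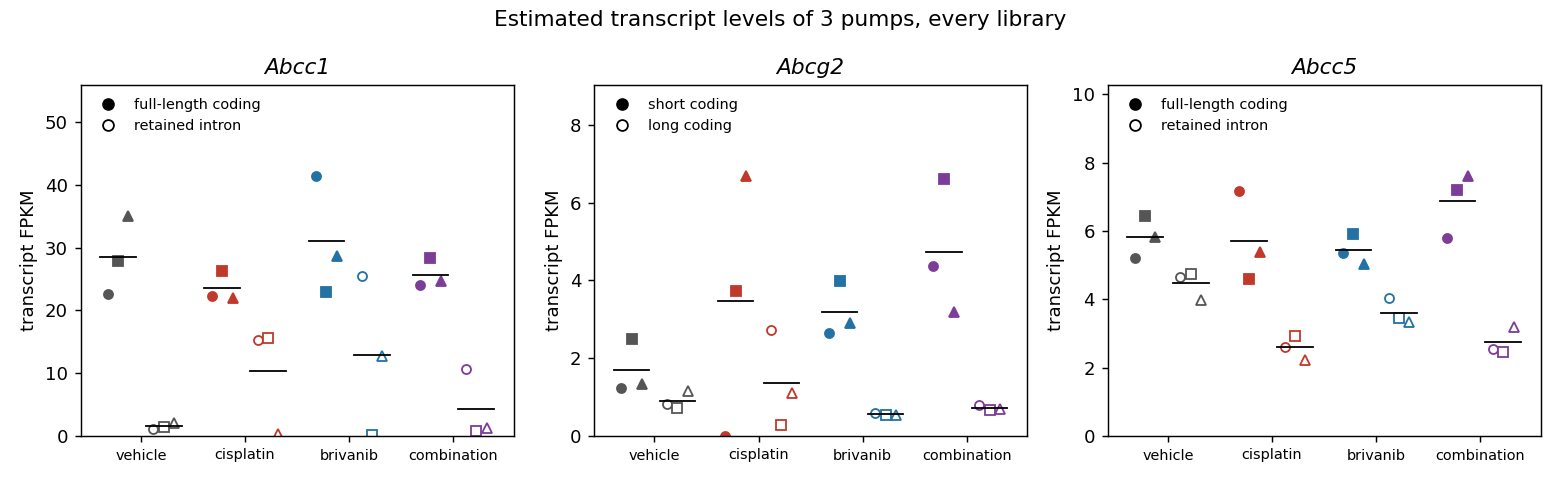
Estimated transcript FPKM (vertical axes, linear, starting at 0) of 2 transcripts each of Abcc1, Abcg2 and Abcc5, filled for the first named in the legend and open for the second, with 1 point per library and bars at the group means. The retained-intron form of Abcc1 is above 10 FPKM in 5 libraries and at most 2.03 in the other 7, the short form of Abcg2 is at 0 in cisplatin 1, and the retained-intron form of Abcc5 is lower in the cisplatin and combination libraries.

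Abcc3 and Abcc2 stayed below the filter. Abcc3 (chr11:94343295-94392997, minus strand), an exporter of bile acids and glucuronides, was at 0.27, 0.24 and 0.11 FPKM in vehicle 2, 3 and 5 on 32, 27 and 11 fragments. It was at 1.31, 1.04 and 0.45 FPKM in brivanib 2, 3 and 5 on 71, 64 and 47 fragments, above the vehicle range. Cisplatin 1, 2 and 3 held 30, 37 and 0 fragments and combination 2, 3 and 4 held 32, 37 and 62. With no filter on low values, brivanib against vehicle gave 0.65 in log2(FPKM + 1), with an unadjusted p of 0.0277 and an adjusted p of 0.38 by limma over 31661 genes. Fibroblast markers, 10 genes, summed to 1617 to 2137 FPKM in brivanib against 750 to 1246 in vehicle, and macrophage markers to 344 to 420 against 114 to 212, and their part in the Abcc3 values was not tested.

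Abcc2 (chr19:43782192-43840740, plus strand), the pump of platinum conjugates, had 3 fragments in cisplatin 1, 7 in combination 2 and none in the other 10 libraries. A count of 0 allows up to 0.097 to 0.175 fragments per 1000000 in these libraries, for counting error only. The 10 fragments do not allow a comparison between groups.

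Over the 6 tested pumps, the number with an unadjusted p under 0.05 was 4 for cisplatin against vehicle, where 14.3% of all genes had one, 1 for brivanib (11.7%) and 3 for the combination (18.8%). Of the 4 for cisplatin, Abcb1b, Abcc4 and Abcg2 were higher and Abcc5 was lower. In the averaged cisplatin effect the number was 2, Abcb1b and Abcg2 (24.8%). The median log2 difference of the 6 was 0.27, 0.24 and 0.12 in these comparisons, against 0.07, -0.01 and 0.04 over all genes tested. In FPKM, the combination lay wholly above vehicle for 3 of the 6, Abcb1b, Abcg2 and Abcc4 (17.2% of all genes). Brivanib did so for 2 of the 6, Abcg2 and Abcc4 (8.95%), and cisplatin for 1, Abcb1b (17%). Cisplatin lay wholly below vehicle for 0 of the 6 (6.72%). In recovered fragments per 1000000, brivanib overlapped vehicle for both genes. Abcg2 was at 9.57, 12.68 and 6.79 in brivanib 2, 3 and 5 against 8.11 to 10.89 in vehicle. Abcc4 was at 50.13, 53.43 and 37.59 against 37.21 to 51.44, a range that also held combination 2, at 51.3. The depth of brivanib 5 includes its ribosomal-like fragments. No pump was called in the averaged brivanib effect, where 0.519% of genes were, or in the interaction, where 0.14% were. In the combination against cisplatin alone no gene of the 14246 was called by limma, and 960 had an unadjusted p under 0.05, none of them a pump. On recovered fragments limma-voom also called 0, with 1002 under that unadjusted p.

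**Figure D4:**
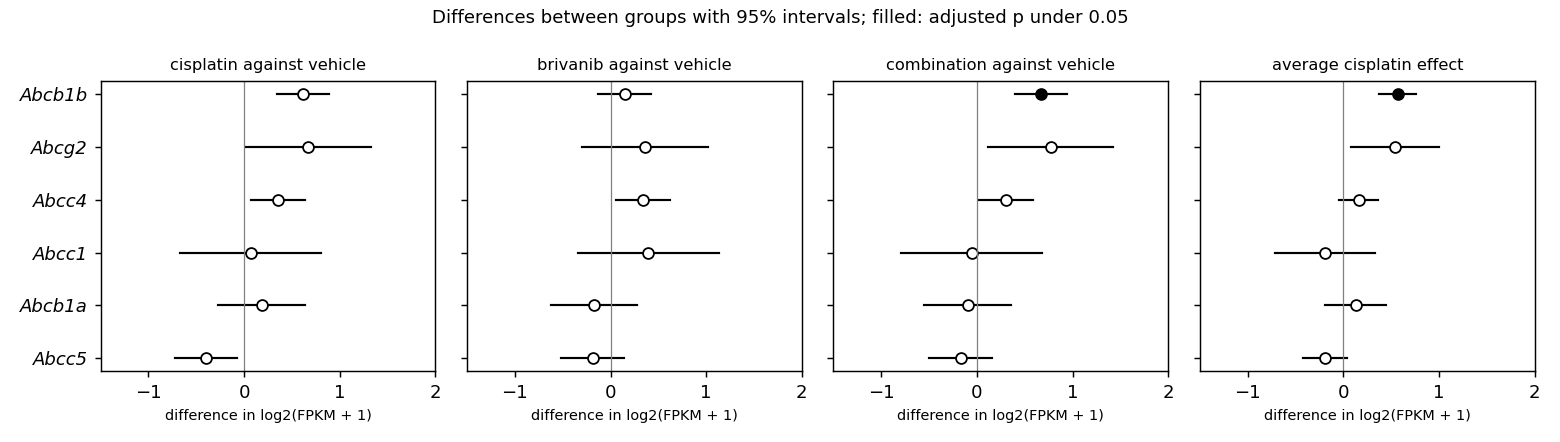
Differences in log2(FPKM + 1) (horizontal axis) of the 6 tested pumps with 95% intervals from limma, in 4 comparisons; filled points have an adjusted p under 0.05. Abcb1b is filled for the combination against vehicle (0.67) and for the averaged cisplatin effect (0.57), and every other point is open.

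The other ABC transporters were given by lists. Of 7 tested ABCB genes beside the pumps, 2 were called higher in the combination than in brivanib alone (3.87% of all genes called). They were Tap1, at 29.7 ± 4.15 against 17.9 ± 4.73 FPKM (adjusted p = 0.0475), and Tap2, at 24.8 ± 4.32 against 15.2 ± 2.01 (adjusted p = 0.0371), the subunits that load peptides for MHC class I and not drug pumps. Tap1 was also the 1 called in the averaged cisplatin effect (6.51% of all genes called), at 0.63 ± 0.128 in log2(FPKM + 1) (adjusted p = 0.0174 by limma). None of the 5 ABCA, 2 ABCC and 4 ABCD and ABCG genes tested was called in any of the 8 contrasts. Over all genes tested, 0% to 6.51% were called in each of these contrasts.

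Of 18 tested factors that are known to regulate pump genes, none but Ahr was called in any of the 8 contrasts. In each contrast 0% to 6.51% of all genes were called. Ahr, the aryl hydrocarbon receptor that controls Cyp1 genes, was at 0.635 ± 0.0933 FPKM in the combination, 0.685 ± 0.0896 in vehicle and 1.85 ± 0.494 in brivanib alone. It passed the filter of 1 FPKM through brivanib alone, so its call against that group is no support for a difference. Hif1a, the hypoxia factor, was at 35.4 ± 5.56 FPKM in brivanib and 25.1 ± 1.29 in vehicle, with an adjusted p of 0.0507. Trp53 was at 59.1 ± 1.72 FPKM in cisplatin and 47.7 ± 1.92 in vehicle (adjusted p = 0.29), and Nfya, a subunit of the factor that binds CCAAT, at 19.3 ± 1.61 and 24.3 ± 4.51 (adjusted p = 0.312). In the averaged cisplatin effect, where Abcb1b was called, none of the 18 passed and 4 had an unadjusted p under 0.05, a share near the 24.8% of all genes.

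Ezr encodes ezrin, which ties membrane proteins such as P-glycoprotein to actin. Among 7 membrane anchors, Ezr was called higher in the averaged cisplatin effect by 0.54 ± 0.132 in log2(FPKM + 1) (adjusted p = 0.0321 by limma). There 4.96% of all genes were called higher. Ezr was at 109 ± 16.2 FPKM in vehicle, 136 ± 12.0 in cisplatin, 95.1 ± 27.4 in brivanib and 159 ± 25.7 in the combination. Rdx, encoding radixin, was at 54.4 ± 1.80 FPKM in vehicle and 66.1 ± 8.76 in the combination (adjusted p = 0.207).

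Glutathione genes supply the conjugates that Abcc pumps carry. Of 19 tested, Mgst1, a membrane-bound glutathione transferase, was called higher in brivanib (12.6 ± 2.80 FPKM) and in the combination (6.27 ± 0.264) than in vehicle (0.909 ± 0.565), by 2.86 ± 0.462 (adjusted p = 0.00818) and 1.97 ± 0.462 (adjusted p = 0.0495) in log2(FPKM + 1). Of all genes, 1.81% were called for brivanib against vehicle and 2.34% for the combination against vehicle. Mgst1 was at 2.87 ± 3.53 FPKM in cisplatin. Mgst3 was called higher in the averaged cisplatin effect, by 0.43 ± 0.0923 (adjusted p = 0.0211 by limma), where 4.96% of all genes were called higher. Gsr, which regenerates glutathione, was at 54.4 ± 2.33 FPKM in the combination and 65.9 ± 2.88 in cisplatin (adjusted p = 0.657).

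Of 11 tested genes of drug oxidation and conjugation, none but Cyp1b1 was called in any of the 8 contrasts (0% to 6.51% of all genes). Cyp1b1, a cytochrome P450 that oxidizes aromatic compounds, was at 3.39 ± 0.923 FPKM in brivanib, 0.985 ± 0.435 in the combination, 0.644 ± 0.926 in cisplatin and 0.0292 ± 0.0372 in vehicle. It too passed the filter through brivanib alone, so its calls are no support for a difference. Beside Mgst1 and Cyp1b1, fibroblast and macrophage markers were higher in brivanib than in vehicle by the sums given for Abcc3, and mast cell markers summed to 19.3 to 44.0 FPKM against 7.30 to 11.8. In the combination, where Mgst1 was also called, fibroblast markers summed to 329 to 794 FPKM, overlapping the vehicle range. Adipocyte markers summed to 61.7 to 328.9 FPKM in brivanib and 116.1 to 351.2 in the combination against 29.9 to 31.6 in vehicle. Their part in these results was not tested. No gene of the 8 tested drug carriers outside the ABC family was called in any of these contrasts, with the same shares of all genes. The nucleoside carrier Slc29a1 was at 74.9 ± 12.2 FPKM in the combination against 61.7 ± 7.82 in vehicle (adjusted p = 0.338 by limma).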

How the data were processed

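RNA-seq of 12 tumours (4 groups of 3) was used. The authors deposited 1 table of FPKM per transcript, and per the submitters' processing notes RSEM 1.2.12 and Bowtie2 2.2.5 were used, with HISAT and Bowtie also named. The build is mm10 in the design text and mm9 in the processing notes. Of 135276 transcripts, 134952 were found in GENCODE M21 (GRCm38), 98.46% of them at identical coordinates, so GRCm38 is given here. The table had 3 broken lines, which were dropped, and 1 per-sample column without a label, which was not used. FPKM were summed per gene, and log2(FPKM + 1) of genes with a mean of at least 1 FPKM was fitted with limma 3.58.1 in R 4.3.3, with a mean-variance trend, 4 group means and 8 residual degrees of freedom. The averaged effects take both settings of the other drug with equal weight. Tests were two-sided, with Benjamini-Hochberg adjustment over all 14246 genes and a threshold of 0.05, and the fit was tested on simulated data. Fragments were recovered from FPKM and transcript length, and every value of at most 100 fragments was within 0.01 of a whole number. Intervals and floors from fragments cover counting error only. The pumps and all lists were chosen with earlier results of these data known. All 8 pumps are described. Of each list, up to 4 genes past the threshold per comparison were named by the size of the statistic, or up to 2 with the smallest p where none passed, and the text gives some of these. Transcripts shown were the most abundant or held at least 10% of a gene. Alternatives were other pseudocounts, filters, scalings, tests, features and covariates, a replicate block, and leaving out each library.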

Additional observations from a re-analysis of the deposited data

How the results depend on the processing

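The count of pumps called was 0 for cisplatin or brivanib against vehicle, the combination against cisplatin, the averaged brivanib effect and the interaction, and it was 0 under every alternative run for them. For the averaged cisplatin effect the count of 1 became 0 with equal FPKM totals and ranged from 1 to 2 with 1 library left out, the 2 being without cisplatin 1. For the combination against vehicle the count of 1 became 0 with equal totals (also without brivanib 5), the adipocyte score as a covariate or transcripts as features, and ranged from 0 to 1 with 1 library left out. Against brivanib alone it became 0 with no filter, equal totals, median-of-ratios scaling (both also without brivanib 5), quantile normalization, only the groups compared, either tissue covariate, the pair summed or transcripts as features, and ranged from 0 to 1 with 1 library left out. For the F test it became 0 with equal totals (also without brivanib 5), median-of-ratios scaling without brivanib 5 or transcripts as features, and ranged from 0 to 1 with 1 library left out. The settings that combine a scaling with leaving out brivanib 5 were chosen after seeing the data. Why the counts changed under these settings was not tested.

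Values of Abcb1b that changed sign were small in log2(FPKM + 1). Brivanib against vehicle was -0.18 and the averaged brivanib effect -0.0642 with equal totals, and the latter was -0.000133 with the adipocyte covariate. The combination against cisplatin was -0.0441 with that covariate and -0.000867 with the pair summed, and ranged from -0.0292 (without cisplatin 3) to 0.134 with 1 library left out, being -0.02 without combination 3. The interaction was 0.23 with equal totals. Abcc5, taken as its coding transcript, was at 0.20 for the combination against vehicle and 0.12 for the averaged cisplatin effect. Equal totals moved the median of all genes by up to 0.34 in size (-0.34 for brivanib against vehicle, 0.15 for the averaged cisplatin effect, 0.31 for the interaction). They lowered the genes called in the averaged cisplatin effect from 928 to 183.

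Same-numbered libraries correlated from -0.157 to 0.213 in their deviations from the group means, and differently numbered ones from -0.232 to 0.231. The labels used here do not say what the numbers stand for. Whether they mark a pairing cannot be told from these correlations. With the number as a replicate block, the averaged cisplatin effect called 80 genes and 1 pump, which was Abcg2 (0.85, adjusted p = 0.0427) and not Abcb1b (0.53, adjusted p = 0.0867). The counts for the combination against vehicle, against brivanib and for the F test were 0 under the block, and the interaction of Abcb1b was 0.0212. The averaged effects, the interaction and the F test need all 4 groups, so they have no value with only the groups compared.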

Other observations

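The genes whose log2(FPKM + 1) followed each pump most closely over the 12 libraries are given as a description, since the libraries share treatments and the genes were ranked on these values. For Abcb1b they were Hao1 (Pearson r = 0.945), Cfap58 (0.944) and Mis18a (0.927). For Abcg2 they were Haus2 (0.900), Elob (0.886) and Plpbp (0.860). For Abcc1 they were Hk2 (0.942), Npm1 (0.917) and Eprs (0.914). For Abcc4 they were Bub1 (0.876), Arhgdib (0.860) and Rbm47 (0.850), for Abcb1a Ank (0.889), Usp19 (0.871) and Smc3 (0.871), and for Abcc5 Zfp738 (0.869), Rdm1 (0.866) and Ulk2 (0.847).

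Among the pumps, r over the same 12 libraries was 0.588 for Abcb1b with Abcc4, 0.566 for Abcb1b with Abcg2 and 0.268 for the neighbours Abcb1a and Abcb1b. It was -0.596 for Abcc5 with Abcg2 and -0.522 for Abcc4 with Abcc5.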
